A study of Homo sapiens with 12 samples.

Results

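The comparison set 3 libraries of a melanoma line resistant to vemurafenib and cobimetinib (VC-resistant) against 3 libraries of a line resistant to dabrafenib and trametinib (DT-resistant). Both are daughter lines of WM1366, a human melanoma line with an NRAS mutation, and the series also holds the sensitive WM1366 line in DMSO and another daughter line, EB-resistant, kept in encorafenib and binimetinib, with 3 libraries each. The members are genes: all 23497 genes of the deposited count table were considered, and 15680 had enough counts in these 6 of the 12 libraries to be tested. Resistant cells were seeded in RPMI with their own BRAF and MEK inhibitors 72 h before lysis, and polyadenylated RNA was taken from 500 ng of total RNA with an integrity number of at least 9. The libraries of each line carry the replicate numbers 2, 5 and 6, from 3 independent experiments, and the fit compared the lines within each number. Each drug pair is represented by 1 line. The drugs, the derivation of the line and its culture history therefore cannot be told apart. The p-values of this fit reflect how much the difference between the lines varied from experiment to experiment, with no second derivation of either line. The inhibitor concentrations are not stated in the labels.

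Vemurafenib and dabrafenib inhibit the kinase BRAF, and cobimetinib and trametinib inhibit the kinases MEK1 and MEK2 that lie below it. In cells with mutant NRAS, RAS signals through RAF kinases to MEK and ERK, and a BRAF inhibitor given alone can raise ERK signalling, while a MEK inhibitor lowers it. ERK induces its own feedback inhibitors, the DUSP phosphatases and Sprouty proteins, so their transcripts are widely read as a measure of pathway output. Melanoma cells that adapt to these drugs are known for shifts in lineage genes, receptor kinases, matrix, cytokines and antigen presentation.

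Library totals ran from 40491309 to 54495132 counts, both extremes being VC-resistant libraries (replicates 2 and 6). Levels are CPM, the usual depth-scaled read counts, with library totals normalised by TMM, and a log2 fold change is positive where VC-resistant is higher. Its standard error follows the ± sign. A gene was called where edgeR's quasi-likelihood test gave a Benjamini-Hochberg adjusted p under 0.05. Of 8 melanocyte lineage markers, 4 had an entry in the table, and their summed level was 62.7 to 73.1 CPM in VC-resistant and 64.5 to 70.9 CPM in DT-resistant cells, nearly all of it from MITF. The melanocyte enzyme gene TYRP1 had at most 10 counts in every library. MITF, the melanocyte master regulator, read 72.9, 62.3 and 64 CPM in VC-resistant and 64.8, 70.1 and 64 CPM in DT-resistant replicates 2, 5 and 6 and was not called (adjusted p = 0.999). Fibroblast markers, all 7 in the table, summed to 281 to 314 CPM in VC-resistant and 361 to 468 CPM in DT-resistant cells. The difference in the sum came from LUM: without it the other 6 summed to 266 to 305 CPM and 249 to 261 CPM, mostly THY1. THY1 lay slightly the other way (262, 268 and 302 CPM against 250, 251 and 244 CPM). At far lower levels, COL1A1 read 1.02, 0.506 and 0.28 CPM in VC-resistant and 6.4, 2.31 and 2 CPM in DT-resistant cells (log2 fold change -2.55 ± 0.22, adjusted p = 3.75e-06). COL3A1 read 0.236, 0.418 and 0.541 CPM against 0.91, 1.06 and 1.43 CPM. The defining fibroblast genes DCN and COL1A2 had at most 10 counts in each library. The 4 immune markers in the table summed to at most 0.463 CPM in any library. The 4 endothelial markers summed to 2.22 to 3.61 CPM and 4.54 to 7.27 CPM, mostly VWF. A longer endothelial list, 10 of whose 13 genes had an entry, lay the other way, at 88.2 to 92.1 CPM and 51.6 to 65.5 CPM, and it holds TIE1, a receptor kinase (log2 fold change 1.31 ± 0.09, adjusted p = 1.52e-06). In bulk RNA, fewer cells of a type and less RNA per cell cannot be told apart, and the part of these marker sums in the results below was not tested. Replicate 2 of both lines stood apart: its counts differed from replicates 5 and 6 of the same line with a chi-square per degree of freedom of 33.0 to 65.0, against 10.9 and 15.3 between replicates 5 and 6.

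Of the 15680 genes tested, 4418 (28.2%) were called: 2058 (13.1%) were higher and 2360 (15.1%) were lower in VC-resistant than in DT-resistant cells. These shares are the background for the list, window and chromosome counts below. Most of these differences were small. The median absolute log2 fold change of called genes was 0.411, and 2891 called genes differed by under 1.5-fold. At least 2-fold differences made up 790 genes (5.04%), 305 higher and 485 lower in VC-resistant cells, and 81 and 166 genes differed at least 4-fold. The direction was the same in all 3 pairs for 4407 of the called genes, and the libraries of the lines did not overlap for 3464 of them (31.9% of all tested genes did not overlap). Replicate number itself was called for 1935 genes (12.3%), and 950 genes (6.06%) were called for both. Without the replicate block, 815 genes were higher and 1105 lower, of which 239 and 406 differed at least 2-fold. Without the pair of replicate 5 the counts were 1175 and 1401, and without that of replicate 6 they were 1308 and 1748. Protein-coding genes were called in 32.2% of 12456 cases, long noncoding RNAs in 15.5% of 2077 and pseudogenes in 7.62% of 1023.

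**Figure D1:**
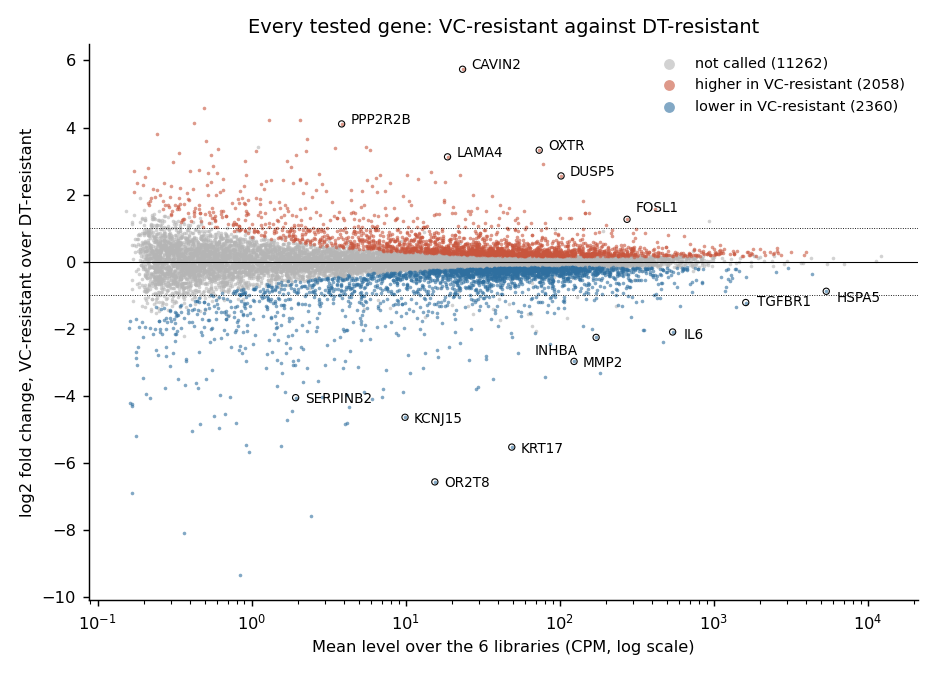
Each point is 1 of the 15680 tested genes, with its mean level over the 6 libraries (CPM, log scale) against its log2 fold change of VC-resistant over DT-resistant, coloured by call. Dotted lines mark a 2-fold difference, and the lower side holds more genes beyond them (485 against 305).

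Among well expressed genes, VC-resistant cells were marked by a caveolar coat gene, a phosphatase subunit and a receptor for oxytocin. OXTR, the oxytocin receptor (chromosome 3, 8750381 to 8769628, reverse strand), read 193, 101 and 109 CPM in VC-resistant replicates 2, 5 and 6 and 16.8, 9.98 and 12.7 CPM in DT-resistant replicates. The ranges were far apart (log2 fold change 3.32 ± 0.084, adjusted p = 4.09e-10). PPP2R2B, a regulatory subunit of protein phosphatase 2A (chromosome 5, 146580742 to 147084784, reverse strand), read 8.39, 6.36 and 7.07 CPM against 0.468, 0.397 and 0.391 CPM, again with no overlap (log2 fold change 4.11 ± 0.18, adjusted p = 1.55e-08). Both genes were also high in the EB-resistant line, at 129 ± 7.87 CPM and 6.97 ± 0.888 CPM (SD, n = 3), and low in the sensitive line, at 2.5 ± 0.634 CPM and 0.463 ± 0.045 CPM. SNCAIP, the synphilin gene, showed the reverse order of the other lines. It read 8.63, 10.1 and 11.7 CPM in VC-resistant and 0.553, 1.04 and 1.34 CPM in DT-resistant cells (log2 fold change 3.41 ± 0.17, adjusted p = 4.75e-08), 11.3 ± 1.57 CPM in sensitive and 0.213 ± 0.0796 CPM in EB-resistant cells. CAVIN2, which encodes a caveolar coat protein (chromosome 2, 191834310 to 191847088, reverse strand), had the largest difference upward under the naming rule: 30, 53.7 and 54.3 CPM against 0.106, 1.15 and 1.45 CPM (log2 fold change 5.74 ± 0.38, adjusted p = 0.00201). The DT-resistant replicate 2 was the lowest library, and the CAVIN2 call was lost without replicate 5 (adjusted p = 0.122). PREX1, an exchange factor that activates RAC, read 28.1, 40.7 and 47.5 CPM against 5.47, 7.38 and 6.45 CPM (log2 fold change 2.57 ± 0.10, adjusted p = 1.39e-08), and the sensitive line was above both at 107 ± 15.3 CPM.

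DT-resistant cells stood above VC-resistant cells in KRT17, a keratin, OR2T8, an olfactory receptor gene, and KCNJ15, an inward rectifier potassium channel. KRT17 (chromosome 17, 41619442 to 41624842, reverse strand) read 4.22, 1.32 and 1.03 CPM in VC-resistant and 161, 61 and 64.9 CPM in DT-resistant replicates 2, 5 and 6. Replicate 2 was the highest library of both lines, and the lines did not overlap (log2 fold change -5.52 ± 0.12, adjusted p = 2.5e-10). OR2T8 (chromosome 1, 247920252 to 247923152, forward strand) read 0.525, 0.308 and 0.186 CPM against 27.4, 30.6 and 34 CPM (log2 fold change -6.56 ± 0.21, adjusted p = 1.51e-08). KRT17 was also high in the EB-resistant line, at 41.7 ± 5.78 CPM, against 0.0923 ± 0.0358 CPM in sensitive cells, and OR2T8 read 4.11 ± 0.803 CPM in EB-resistant cells. Keratin and olfactory receptor genes have near copies that can share reads, so these counts are uncertain. KCNJ15 (chromosome 21, 38155549 to 38307357, forward strand) read 1.08, 0.594 and 0.671 CPM against 20.7, 17.9 and 18.6 CPM (log2 fold change -4.64 ± 0.15, adjusted p = 8.59e-10), and the DT-resistant libraries lay above every other line. FPR1, the formyl peptide receptor, read 0.262, 0.55 and 0.373 CPM against 9.02, 7.6 and 7.87 CPM (log2 fold change -4.34 ± 0.22, adjusted p = 5.08e-08). PTGS2, the inducible cyclooxygenase, read 0.498, 0.528 and 0.466 CPM against 7.47, 7.97 and 8.15 CPM (log2 fold change -3.98 ± 0.17, adjusted p = 1.42e-08), with all VC-resistant libraries near the sensitive level of 0.616 ± 0.164 CPM. CEMIP, which takes part in hyaluronan breakdown, read 1.18, 0.616 and 0.671 CPM against 15.9, 12.6 and 11.4 CPM (log2 fold change -4.04 ± 0.15, adjusted p = 5.67e-09).

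When 1 line was required to have no more than 3 counts per library and the other no less than 1 CPM, 2 genes were on in DT-resistant cells and 0 in VC-resistant cells. F2RL3, a thrombin receptor, had 1, 0 and 2 counts in VC-resistant replicates 2, 5 and 6 and 5.34, 5.24 and 3.89 CPM in DT-resistant replicates. The ratio of mean levels was 222 (95% counting interval 75.5 to 1080). The sensitive and EB-resistant lines read 6.8 ± 1.25 CPM and 3.53 ± 0.402 CPM, so the VC-resistant line stood below the other 3 lines. TAFA4, a secreted protein gene, had 2, 1 and 2 counts against 2.76, 1.54 and 1.13 CPM, a ratio of 50.3 (21.3 to 156), and was listed at 0 in sensitive cells. These intervals cover counting error only.

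**Figure D2:**
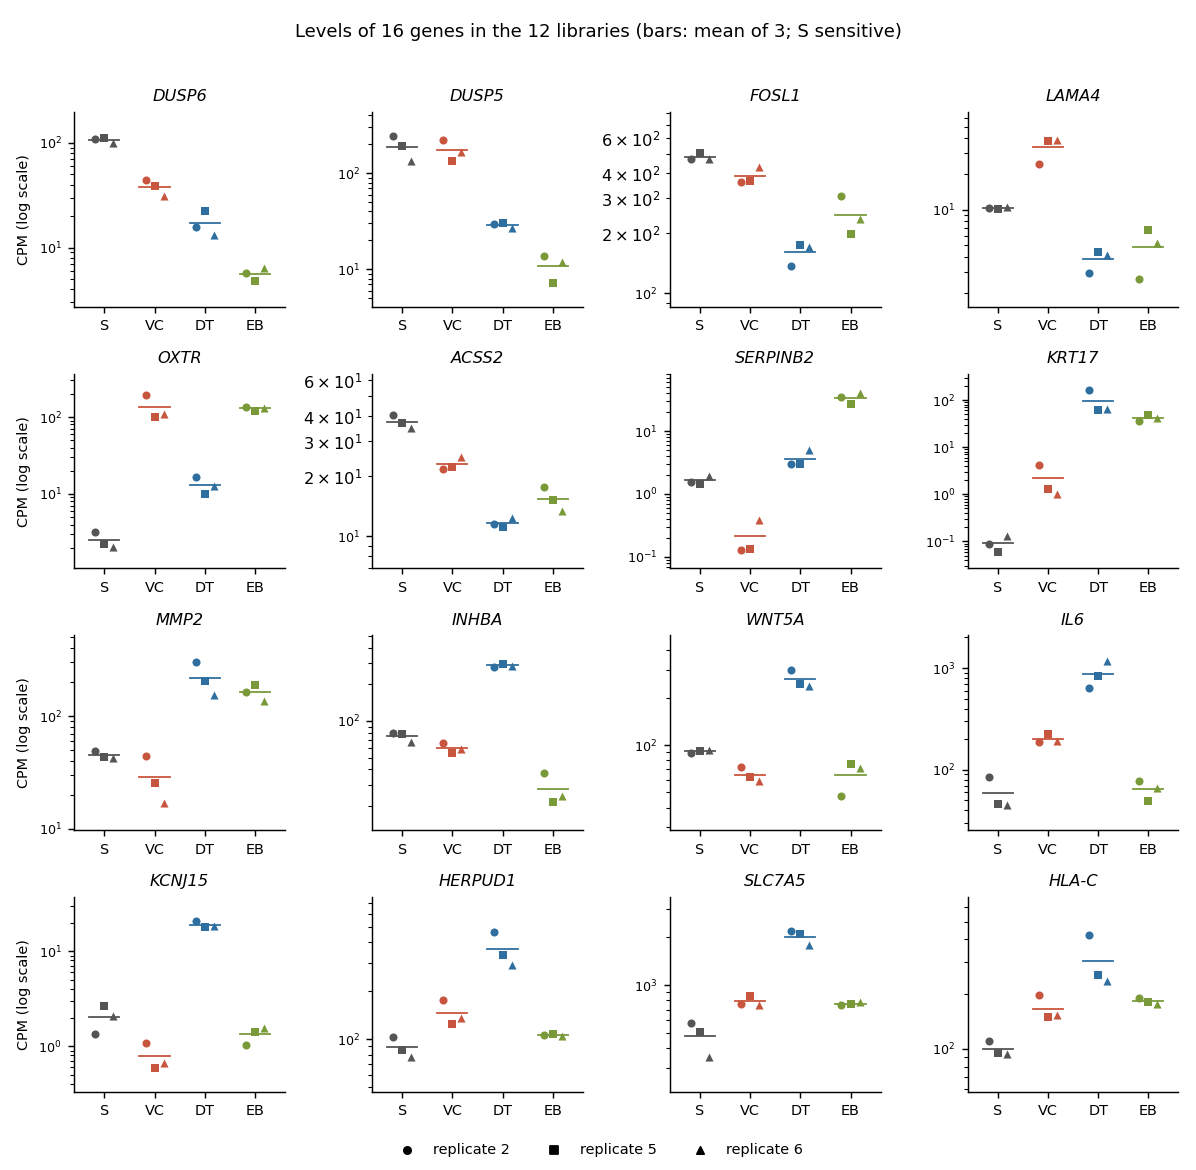
Levels (CPM, log scale) of 16 genes in the 12 libraries of the sensitive (S), VC-resistant, DT-resistant and EB-resistant lines; symbols give the replicate number and bars the mean of 3. In each of the 16 genes the VC-resistant and DT-resistant libraries do not overlap, for example 193, 101 and 109 CPM against 16.8, 9.98 and 12.7 CPM for OXTR. The 16 were picked from the called genes, and 31.9% of all tested genes do not overlap.

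Transcripts that ERK signalling induces were mostly higher in VC-resistant cells. Of 26 such genes tested, 19 were higher, 2 were lower and 5 were not called, with a median log2 fold change of 0.406 against -0.000417 over all genes. DUSP5, a phosphatase that inactivates ERK in the nucleus, read 225, 133 and 168 CPM in VC-resistant and 30, 30.7 and 26.8 CPM in DT-resistant replicates 2, 5 and 6 (log2 fold change 2.56 ± 0.17, adjusted p = 0.000485). The VC-resistant level overlapped that of the sensitive line, 189 ± 54.5 CPM, while the DT-resistant libraries lay between it and the EB-resistant level of 10.9 ± 3.31 CPM. DUSP6, the cytoplasmic ERK phosphatase, read 44.1, 38.8 and 31.3 CPM against 15.8, 22.1 and 13.3 CPM (log2 fold change 1.17 ± 0.11, adjusted p = 6.15e-05). Here both resistant lines stayed below the sensitive level of 107 ± 5.9 CPM and above the EB-resistant level of 5.63 ± 0.798 CPM. SPRY4, a feedback inhibitor of receptor kinase signalling, read 55.4, 43.5 and 37.3 CPM against 22.8, 23.1 and 15.2 CPM (log2 fold change 1.16 ± 0.085, adjusted p = 1.17e-06). FOSL1, an AP-1 subunit stabilised by ERK, read 364, 367 and 430.1 CPM against 137, 176 and 171 CPM (log2 fold change 1.26 ± 0.07, adjusted p = 1.26e-07), with all VC-resistant libraries above all DT-resistant ones. CCND1, which encodes cyclin D1, differed less: 172, 174 and 189.8 CPM against 128, 148 and 137 CPM (log2 fold change 0.37 ± 0.061, adjusted p = 0.000704).

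The 4 lines followed the same order in many of these genes. In 13 of the 26 the mean level ranked sensitive, VC-resistant, DT-resistant and EB-resistant from high to low. The same order held in 12 of 35 mitotic genes, and its share over all genes was not counted. In 15 of the 19 ERK-induced genes that were higher in VC-resistant than in DT-resistant cells, the sensitive line was higher still. Over all genes higher in VC-resistant cells, the sensitive level was above both lines in 43.9%. ETV4, an ETS factor, belonged to these ERK-induced genes, with 53.6, 54.5 and 56.8 CPM in VC-resistant and 37.6, 45.8 and 45.5 CPM in DT-resistant cells (log2 fold change 0.36 ± 0.068, adjusted p = 0.00177). Its relative ETV5 was not called (log2 fold change 0.23 ± 0.10, adjusted p = 0.134), nor were SPRY2 (log2 fold change -0.19 ± 0.075, adjusted p = 0.0819) and MYC (log2 fold change 0.19 ± 0.07, adjusted p = 0.0617), although SPRY2 was without replicate 6 (adjusted p = 0.0124) and MYC without replicate 5 (adjusted p = 0.0312). With no filter on low counts, ETV5, SPRY2 and MYC were called (adjusted p = 0.00131, 0.0191 and 0.0118). The 2 members lower in VC-resistant cells were LIF, a cytokine, and IER3, an early response gene. IER3 read 48.9, 52.2 and 40.2 CPM against 118, 152 and 140.2 CPM (log2 fold change -1.54 ± 0.091, adjusted p = 1.16e-06). Without the block 14 of the 26 were higher and 2 lower, and without 1 pair of replicates 16 or 17 were higher. In the AP-1 family, FOSL1 and FOS were among 4 higher members, whereas ATF3 and MAFF, which encode stress-induced factors, were among 6 lower ones of 11 tested (log2 fold change -0.98 ± 0.089, adjusted p = 7.29e-06, and log2 fold change -1.06 ± 0.11, adjusted p = 0.000265). Both the ATF3 and the FOS call were lost in a fit of all 12 libraries (adjusted p = 0.179 and 0.355 with the block).

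**Figure D3:**
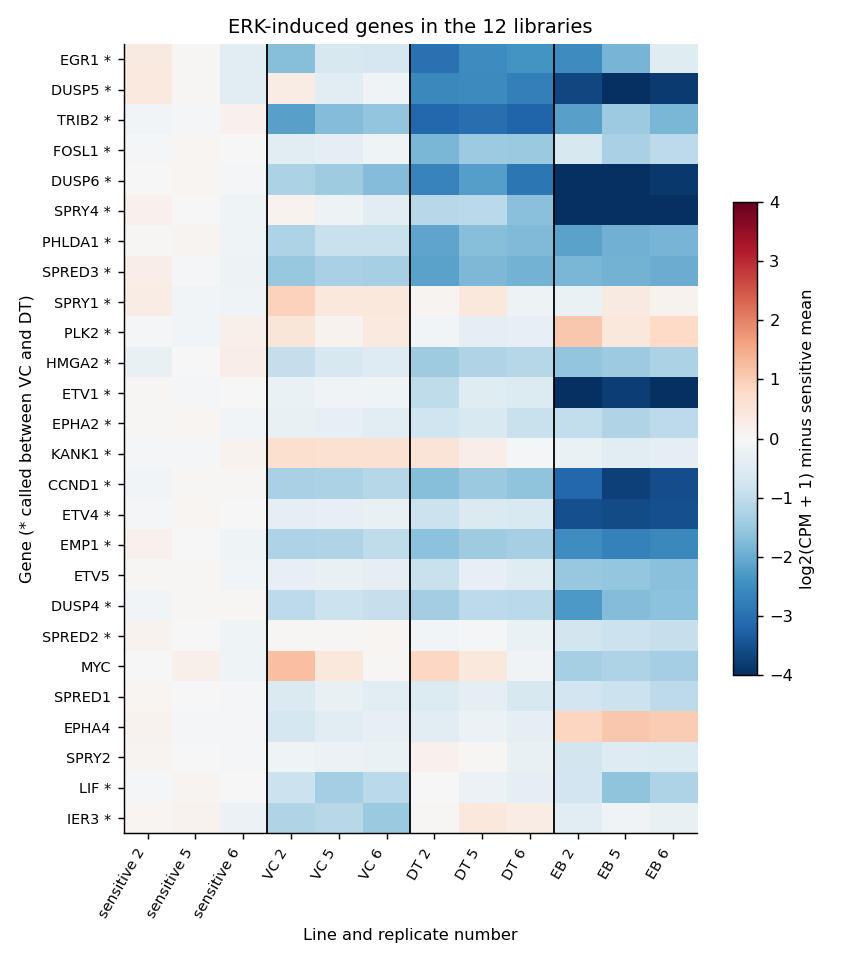
Levels of the 26 ERK-induced genes in the 12 libraries, as log2(CPM + 1) minus the mean of the 3 sensitive libraries, with genes ordered by the fold change of VC-resistant over DT-resistant. Colours stop at 4 log2 units on either side, and stars mark the 21 genes called between the lines.

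The drug targets and the receptors above them differed in part. BRAF, the target of vemurafenib and dabrafenib, read 46.8, 44.1 and 48 CPM in VC-resistant and 55.8, 43.2 and 40.6 CPM in DT-resistant cells and was not called (adjusted p = 0.97). NRAS differed slightly (log2 fold change -0.19 ± 0.055, adjusted p = 0.0248), a call that was lost without the block (adjusted p = 0.105), without replicate 5 (adjusted p = 0.258) and without replicate 6 (adjusted p = 0.066). Of 26 genes of the RAS, RAF, MEK and ERK core, 5 were higher and 6 lower, and without the block 2 and 2. MRAS, a RAS-related GTPase, was the lowest of them: 8.52, 6.49 and 5.54 CPM against 24.9, 17 and 15.8 CPM (log2 fold change -1.48 ± 0.093, adjusted p = 2.96e-07). Of 20 receptor tyrosine kinases 5 were higher and 6 lower. KIT, the stem cell factor receptor, was higher in VC-resistant cells, at 9.34, 12 and 11.9 CPM against 4.02, 3.41 and 3.52 CPM (log2 fold change 1.59 ± 0.14, adjusted p = 4.32e-06), and so was its ligand KITLG (log2 fold change 1.04 ± 0.09, adjusted p = 4.13e-06). IGF1R, the receptor for insulin-like growth factors, was lower, at 39.6, 42.5 and 37.4 CPM against 81.8, 81.2 and 61.2 CPM (log2 fold change -0.90 ± 0.071, adjusted p = 2.33e-06). The DT-resistant line was the highest of the 4 lines for IGF1R, since sensitive and EB-resistant cells read 37.9 ± 3.38 CPM and 32.8 ± 2.58 CPM. EPHA5, an ephrin receptor, and ROR1, a receptor for WNT5A, were lower in VC-resistant cells (log2 fold change -2.11 ± 0.087, adjusted p = 1.14e-08, and log2 fold change -2.03 ± 0.17, adjusted p = 2.76e-06). AXL (log2 fold change 0.097 ± 0.062, adjusted p = 0.276) and PDGFRB (log2 fold change 0.065 ± 0.17, adjusted p = 0.814) were not called, and NGFR had too few counts to be tested. EGFR was slightly higher (log2 fold change 0.27 ± 0.066, adjusted p = 0.0101), but not without the block (adjusted p = 0.125) or without replicate 6 (adjusted p = 0.0859).

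Growth factors split between the lines, with 8 of 23 higher and 6 lower in VC-resistant cells. FGF1, a fibroblast growth factor, read 29.1, 28.5 and 25.7 CPM in VC-resistant and 5.7, 8.37 and 9.46 CPM in DT-resistant cells (log2 fold change 1.84 ± 0.16, adjusted p = 9.97e-05). TGFA, a ligand of EGFR, lay the other way, at 0.708, 1.8 and 2.5 CPM against 4.21, 8.44 and 7.3 CPM (log2 fold change -2.03 ± 0.19, adjusted p = 9.81e-06), and both lines were below the sensitive level of 18.2 ± 1.65 CPM. PDGFB, a ligand of the PDGF receptors, was lower as well (log2 fold change -1.48 ± 0.14, adjusted p = 1.16e-05).

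Genes of TGF-beta and activin signalling, among them a ligand and a receptor, were more often lower than higher in VC-resistant cells. Of 35 genes of TGF-beta and BMP signalling tested, 17 were lower and 7 higher, with a median log2 fold change of -0.338. INHBA, which encodes the activin A subunit, read 65.5, 55 and 59.3 CPM in VC-resistant and 277, 294 and 285 CPM in DT-resistant cells. No library of the other 3 lines reached the DT-resistant range, and the lines did not overlap (log2 fold change -2.26 ± 0.07, adjusted p = 8.59e-10). TGFBR1, the type I receptor, read 1086, 947 and 888 CPM against 2486, 2220.1 and 2072 CPM (log2 fold change -1.22 ± 0.055, adjusted p = 1.98e-08), and both lines were above the sensitive level of 151 ± 2.24 CPM. BMP1, a protease that cleaves procollagens, was lower (log2 fold change -1.32 ± 0.068, adjusted p = 5.41e-08). TGFBR3, the coreceptor betaglycan, lay the other way, at 1.44, 2.07 and 1.81 CPM against 0.383, 0.573 and 0.507 CPM (log2 fold change 1.86 ± 0.25, adjusted p = 0.000145), as did the BMP target ID1 (log2 fold change 0.78 ± 0.094, adjusted p = 6.92e-05). The ID1 call was lost without the block (adjusted p = 0.218), where 11 list members were lower and 4 higher.

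WNT ligands and modulators included some of the larger differences, in both directions. Of 28 genes tested, 10 were higher and 8 lower in VC-resistant cells. WNT5A, a ligand of the noncanonical pathway linked to invasive melanoma, read 72.6, 62.3 and 59.3 CPM against 302, 245 and 238 CPM, with all DT-resistant libraries above those of the other 3 lines (log2 fold change -2.01 ± 0.057, adjusted p = 4.09e-10). RSPO3, which potentiates WNT signalling, read 1.65, 1.76 and 2.41 CPM against 17.1, 21.5 and 20.1 CPM (log2 fold change -3.33 ± 0.13, adjusted p = 6.05e-09) and was near 0 in sensitive cells, at 0.143 ± 0.105 CPM. LEF1, a transcription factor of the canonical pathway, was higher in VC-resistant cells, at 5.32, 7.48 and 8.22 CPM against 3.3, 2.56 and 2.9 CPM (log2 fold change 1.25 ± 0.17, adjusted p = 0.000262). SFRP1, a secreted WNT inhibitor, read 7.87, 20.9 and 24.5 CPM against 3.04, 2.42 and 2.69 CPM (log2 fold change 2.59 ± 0.47, adjusted p = 0.0399), a call that was lost without replicate 5 (adjusted p = 0.308), without replicate 6 (adjusted p = 0.114) and with no filter on low counts (adjusted p = 0.163). Without the block 7 list members were higher and 2 lower.

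Collagen and protease genes were more often lower than higher in VC-resistant cells, while other matrix genes split evenly. Of 21 collagen genes tested, 12 were lower and 3 higher (median log2 fold change -0.745), and of 37 proteases and inhibitors 18 were lower and 6 higher (median -0.26). Of 34 matrix glycoproteins and proteoglycans 10 were lower, 9 higher and 15 not called (median 0.0383). MMP2, a gelatinase, read 44.3, 25.8 and 16.9 CPM in VC-resistant and 299, 203 and 155 CPM in DT-resistant replicates 2, 5 and 6. Replicate 2 was the highest library of each line, and the 3 pairs agreed in direction (log2 fold change -2.97 ± 0.082, adjusted p = 8.55e-10). MMP14, the membrane protease that activates MMP2, read 413, 314 and 309.5 CPM against 1120.5, 755 and 735 CPM (log2 fold change -1.32 ± 0.06, adjusted p = 2e-08). COL5A1, a fibrillar collagen chain, read 196, 128 and 99.4 CPM against 738, 551 and 419 CPM (log2 fold change -2.03 ± 0.061, adjusted p = 5.47e-10), and COL16A1 read 1.39, 1.12 and 1.06 CPM against 7.76, 6.87 and 8.04 CPM (log2 fold change -2.67 ± 0.16, adjusted p = 1.59e-07). SERPINB2, an inhibitor of plasminogen activators, read 0.131, 0.132 and 0.392 CPM against 3.02, 2.97 and 4.95 CPM (log2 fold change -4.05 ± 0.26, adjusted p = 3.65e-07). Among the proteoglycans, LUM, which encodes lumican and is one of the fibroblast markers, read 26.5, 8.71 and 8.95 CPM against 207, 104 and 123 CPM (log2 fold change -3.42 ± 0.18, adjusted p = 0.000274).

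Other matrix genes were higher in VC-resistant cells. LAMA4, a laminin chain of basement membranes, read 24.2, 37.9 and 38.8 CPM against 2.96, 4.38 and 4.14 CPM, above every library of the other 3 lines (log2 fold change 3.13 ± 0.092, adjusted p = 5.47e-10). COL13A1, a transmembrane collagen, read 63.4, 64.6 and 61.7 CPM against 18, 19.5 and 20.8 CPM (log2 fold change 1.70 ± 0.071, adjusted p = 1.17e-08). CSPG4, a melanoma surface proteoglycan, read 229, 206 and 207 CPM against 80.8, 79.4 and 73.7 CPM (log2 fold change 1.45 ± 0.058, adjusted p = 8.38e-09). MMP3, a stromelysin, was higher (log2 fold change 2.13 ± 0.22, adjusted p = 2.08e-05), but not without the block (adjusted p = 0.0751). Of 16 integrin subunits 6 were higher and 6 lower. ITGA7, a laminin-binding subunit, read 62.3, 38.6 and 31.3 CPM against 15, 8.92 and 9.05 CPM (log2 fold change 1.99 ± 0.083, adjusted p = 1.2e-08), while ITGAV and ITGB1 were lower (log2 fold change -0.66 ± 0.06, adjusted p = 6.5e-06, and log2 fold change -0.44 ± 0.055, adjusted p = 8.13e-05). Without the block 9 collagens were lower and 2 higher, 13 proteases lower and 2 higher, 5 matrix glycoproteins and proteoglycans lower and 7 higher, and 3 integrins lower and 2 higher. Beside these lists, the sum of the 7 fibroblast markers was lower in VC-resistant cells only through LUM. The markers COL1A1 and COL3A1 read lower as well, at far lower levels. LUM and COL1A1 are both markers and members of these lists.

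**Figure D4:**
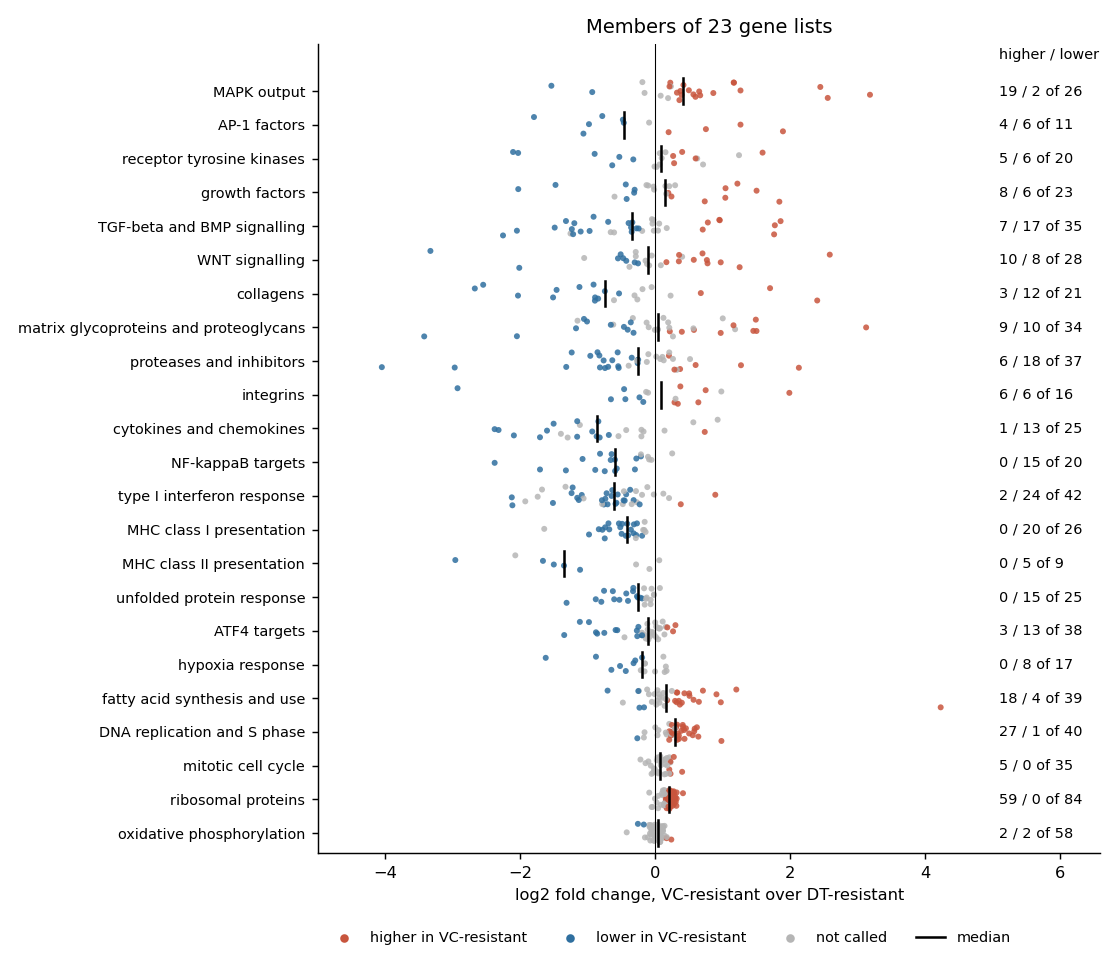
Log2 fold change (VC-resistant over DT-resistant) of every tested member of 23 gene lists, coloured by call, with the list median as a black bar and the number of members higher and lower at the right. Cytokine, NF-kappaB, interferon, MHC, collagen and unfolded protein response genes lie mostly below 0, while MAPK output, DNA replication and ribosomal protein genes lie mostly above 0.

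Inflammatory cytokines and NF-kappaB subunits and targets were mostly lower in VC-resistant cells. NF-kappaB factors sit in the cytoplasm until a signal frees them, and they induce cytokines as well as their own subunits and inhibitors. Of 25 cytokine and chemokine genes tested, 13 were lower and 1, IL12A, was higher (median log2 fold change -0.867). Of 20 NF-kappaB subunits and targets 15 were lower and 0 higher (median -0.594), against a background of 15.1% lower. IL6, an inflammatory cytokine, read 187, 223 and 191 CPM in VC-resistant and 630.0, 837 and 1182 CPM in DT-resistant replicates 2, 5 and 6. The lines did not overlap, and in both IL6 was above the sensitive level of 58.6 ± 23 CPM (log2 fold change -2.09 ± 0.23, adjusted p = 0.0109). The IL6 call was lost without replicate 2 (adjusted p = 0.141), without replicate 5 (adjusted p = 0.119) and with no filter on low counts (adjusted p = 0.071). IL32 read 55.9, 38.9 and 34.6 CPM against 150.2, 110.2 and 104 CPM (log2 fold change -1.50 ± 0.061, adjusted p = 9.45e-09), and IL1A read 18.8, 30.5 and 32.4 CPM against 42.3, 63 and 77.2 CPM (log2 fold change -1.16 ± 0.067, adjusted p = 1.36e-07). ICAM1, an adhesion molecule that NF-kappaB induces, read 121, 104 and 89.2 CPM against 227, 193 and 162 CPM (log2 fold change -0.89 ± 0.055, adjusted p = 2.41e-07), and NFKB2, the p100 subunit, read 111, 116 and 107 CPM against 178, 179 and 171 CPM (log2 fold change -0.66 ± 0.055, adjusted p = 2.96e-06). Receptors followed in part: 13 of 31 cytokine receptors were lower and 1 higher, among the lower ones the scavenging chemokine receptor ACKR3 (log2 fold change -2.71 ± 0.14, adjusted p = 3.07e-07) and IL1R1 (log2 fold change -1.23 ± 0.10, adjusted p = 2.46e-06). Without the block 11 NF-kappaB genes and 9 cytokines were lower. The cytokine and NF-kappaB lists have the same lowest log2 fold change, -2.38, and their shared members were not counted, so they may not be independent. ICAM1 is also on the list of checkpoint and co-stimulatory ligands.

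The promoters of these genes were read for the 10-base NF-kappaB consensus on both strands, in the 250 bases before the start site (RefSeq, GRCh38.p14, a table that matched 10790 of the 15680 tested genes by symbol). It was present in 5 of the 14 matched genes of the list that were lower in VC-resistant cells and in 2 of the 4 others, against 11.6% of all matched tested genes. The sequences of the 3 lower genes with a match and the smallest adjusted p are given to show where the consensus lies, with matches in capitals. CCL20 encodes a chemokine (chr2:227813592-227813841, forward strand), and NFKB1 (chr4:102501109-102501358, forward strand) and REL (chr2:60881324-60881573, forward strand) encode NF-kappaB subunits, and their choice followed their values.
CCL20: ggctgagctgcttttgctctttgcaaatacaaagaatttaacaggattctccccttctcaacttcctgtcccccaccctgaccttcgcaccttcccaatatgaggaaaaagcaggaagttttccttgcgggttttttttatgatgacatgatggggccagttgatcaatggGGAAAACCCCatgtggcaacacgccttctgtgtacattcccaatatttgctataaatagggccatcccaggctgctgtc
NFKB1: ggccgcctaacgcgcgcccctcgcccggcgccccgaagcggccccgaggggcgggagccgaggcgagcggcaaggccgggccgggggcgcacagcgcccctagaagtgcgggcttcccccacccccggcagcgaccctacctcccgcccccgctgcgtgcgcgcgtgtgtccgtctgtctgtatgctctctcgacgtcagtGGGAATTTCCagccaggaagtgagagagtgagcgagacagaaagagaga
REL: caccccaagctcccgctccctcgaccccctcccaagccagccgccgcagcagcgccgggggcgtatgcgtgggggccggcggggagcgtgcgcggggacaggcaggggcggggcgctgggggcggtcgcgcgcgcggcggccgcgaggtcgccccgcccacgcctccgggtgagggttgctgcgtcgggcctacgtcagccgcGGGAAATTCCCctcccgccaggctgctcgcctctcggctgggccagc
The matches lie 79, 49 and 47 bases before the start of CCL20, NFKB1 and REL, and REL has a second, overlapping match on the other strand. CCL20 read 8.66, 20.9 and 19.7 CPM in VC-resistant and 24.6, 60.4 and 80.9 CPM in DT-resistant cells (log2 fold change -1.71 ± 0.10, adjusted p = 1.12e-06), a call lost without the block (adjusted p = 0.0724). NFKB1 read 66.6, 71.9 and 64.9 CPM against 99.8, 114 and 94.3 CPM (log2 fold change -0.60 ± 0.058, adjusted p = 1.13e-05), and REL read 8.5, 9.2 and 9.77 CPM against 22.5, 17.2 and 18.6 CPM (log2 fold change -1.08 ± 0.11, adjusted p = 1.93e-05). For each of the 3 genes, all DT-resistant libraries lay above all VC-resistant ones. They were chosen by adjusted p, and the same held for 16.6% of all tested genes.

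Interferon-induced antiviral genes were more often lower than higher in VC-resistant cells. Type I interferon induces genes whose promoters carry the interferon-stimulated response element. Of 42 such genes tested, 24 were lower, 2 were higher and 16 were not called, with a median log2 fold change of -0.611. XAF1, a gene that promotes apoptosis, read 8.89, 8.93 and 6.88 CPM in VC-resistant and 29.4, 18.6 and 23.3 CPM in DT-resistant cells (log2 fold change -1.51 ± 0.13, adjusted p = 1.65e-05). IRF1, an interferon regulatory factor, read 17.1, 18.6 and 17.2 CPM against 42.3, 34.6 and 41.4 CPM (log2 fold change -1.15 ± 0.088, adjusted p = 1.63e-06), and PARP9 read 23.8, 25 and 23.8 CPM against 47.6, 37.8 and 38.4 CPM (log2 fold change -0.76 ± 0.083, adjusted p = 3.24e-05). The IRF1 call was lost in a fit of all 12 libraries, where the adjusted p was 0.147 with the block. IFIT2, an RNA-binding antiviral effector, lay the other way, at 49.1, 53.4 and 50.3 CPM against 26.7, 25.7 and 30 CPM (log2 fold change 0.89 ± 0.073, adjusted p = 2.6e-06), as did OASL (log2 fold change 0.38 ± 0.13, adjusted p = 0.0475), whose call was lost without replicate 5 (adjusted p = 0.484), without replicate 6 (adjusted p = 0.104) and without the block (adjusted p = 0.131). Of the 24 lower genes, 18 had a sensitive level below that of VC-resistant cells, so both resistant lines were above their parent and the DT-resistant line further. Over all genes lower in VC-resistant cells, the sensitive level was below both lines in 53.9%. Without the block 21 were lower and 1 higher.

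The element, written as GAAA, any 2 bases and GAAA again and searched on both strands of the same 250 bases, was present in 18 of the 32 matched genes of the list and in 2.4% of all matched tested genes. It was in 9 of the 19 that were lower in VC-resistant cells and in 9 of the other 13. The 3 lower genes with a match and the smallest adjusted p are printed to show its place, with matches in capitals, again chosen after their values were seen: SAMD9, an antiviral factor (chr7:93117980-93118229, reverse strand), EPSTI1 (chr13:42992242-42992491, reverse strand) and IFIT5, a relative of IFIT2 (chr10:89414318-89414567, forward strand).
SAMD9: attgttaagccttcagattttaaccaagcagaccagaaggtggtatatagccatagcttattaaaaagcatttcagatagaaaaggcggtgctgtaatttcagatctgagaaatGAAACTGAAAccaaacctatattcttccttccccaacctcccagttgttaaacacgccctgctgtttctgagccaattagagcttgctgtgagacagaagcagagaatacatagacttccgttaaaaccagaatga
EPSTI1: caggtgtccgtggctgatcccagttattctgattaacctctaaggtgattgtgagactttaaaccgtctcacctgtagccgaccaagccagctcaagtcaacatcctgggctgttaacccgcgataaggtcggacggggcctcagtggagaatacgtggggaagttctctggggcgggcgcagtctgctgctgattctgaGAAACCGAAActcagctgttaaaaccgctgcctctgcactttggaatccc
IFIT5: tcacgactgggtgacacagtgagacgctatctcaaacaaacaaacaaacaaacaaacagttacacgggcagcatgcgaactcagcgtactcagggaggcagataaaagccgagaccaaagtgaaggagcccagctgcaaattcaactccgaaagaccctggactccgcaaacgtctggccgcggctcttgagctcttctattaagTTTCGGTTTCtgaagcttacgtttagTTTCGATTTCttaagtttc
SAMD9 and EPSTI1 hold 1 match each, 136 and 50 bases before the start, and IFIT5 holds 2 on the reverse strand, 45 and 19 bases before it. EPSTI1 read 22.3, 19.3 and 17.8 CPM in VC-resistant and 63, 34.1 and 33.8 CPM in DT-resistant replicates 2, 5 and 6, highest in DT-resistant replicate 2 (log2 fold change -1.09 ± 0.13, adjusted p = 0.000515). SAMD9 read 19.7, 25.6 and 25.6 CPM against 33, 33.8 and 39.3 CPM (log2 fold change -0.59 ± 0.079, adjusted p = 0.000153). IFIT5 read 21, 24.5 and 24.5 CPM against 32.8, 31 and 31.8 CPM (log2 fold change -0.45 ± 0.079, adjusted p = 0.00109). None of the 3 genes overlapped between the lines, but they were chosen by adjusted p, and 31.9% of all tested genes did not overlap.

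Genes of antigen presentation by MHC class I were mostly lower in VC-resistant cells. MHC class I molecules carry peptides to CD8 T cells, after proteasomal cutting, transport by TAP and loading in the endoplasmic reticulum. Of 26 genes of the class I list tested, 20 were lower, 0 higher and 6 not called (median log2 fold change -0.424). The values of the 26 ran from -1.64 to -0.142. The list is wider than peptide presentation. It includes MICA, MICB, ULBP1, ULBP2 and ULBP3, class I-like ligands that carry no peptide, and the general folding genes CALR, CANX and PDIA3. HLA-C read 198, 149 and 153 CPM in VC-resistant and 422, 255 and 237 CPM in DT-resistant replicates 2, 5 and 6, highest in DT-resistant replicate 2 (log2 fold change -0.84 ± 0.08, adjusted p = 2.7e-05). TAP1, a subunit of the peptide transporter, read 106, 84.8 and 89.8 CPM against 198, 145 and 132 CPM (log2 fold change -0.74 ± 0.068, adjusted p = 7.83e-06). B2M, the invariant light chain, read 1173, 994 and 1061 CPM against 2077, 1277 and 1287 CPM (log2 fold change -0.49 ± 0.10, adjusted p = 0.00876), and its call was lost without the block (adjusted p = 0.119) and in DESeq2 (adjusted p = 0.118). Many class I genes lie on chromosome 6, where called genes were mostly lower. The 15 members on that chromosome had a median of -0.435 with 12 lower, and the 11 members elsewhere had a median of -0.401 with 8 lower. CALR, CANX and PDIA3 also belong to the unfolded protein response list below, so these lists are not independent. Without the block 12 of the 26 were lower. HLA genes are close copies of each other, and reads shared among them make their counts uncertain.

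Of 9 class II genes tested, 5 were lower and 0 higher, and without the block or without replicate 2 or 5 there were 3 lower ones. HLA-DRB1, a class II chain, read 0.157, 0.242 and 0.186 CPM against 2.42, 1.37 and 1.13 CPM (log2 fold change -2.96 ± 0.35, adjusted p = 5.31e-05), and CTSS, the protease that trims the invariant chain, read 19.9, 17.8 and 18.4 CPM against 46.2, 36.8 and 38.8 CPM (log2 fold change -1.11 ± 0.071, adjusted p = 3.44e-07). In 0 of the 5 was the sensitive mean below the VC-resistant mean, against 15 of the 20 lower genes of the class I list. Among all genes lower in VC-resistant cells, the sensitive level was below both lines in 53.9%. Among checkpoint and co-stimulatory ligands, CD274, which encodes PD-L1, was not called (log2 fold change -0.24 ± 0.10, adjusted p = 0.133), although it was called without replicate 2 (adjusted p = 3.51e-06) and with no filter on low counts (adjusted p = 0.000653). IDO1, an enzyme that breaks down tryptophan, read 0.446, 0.55 and 0.354 CPM against 1.57, 1.3 and 0.921 CPM (log2 fold change -1.47 ± 0.29, adjusted p = 0.00222). TNFSF18, the ligand of the receptor GITR, lay the other way, at 3.8, 6.89 and 8.34 CPM against 0.149, 0.793 and 0.967 CPM (log2 fold change 3.38 ± 0.23, adjusted p = 1.13e-06).

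Chaperones and other genes of the unfolded protein response were often lower in VC-resistant cells. This response raises folding and degradation capacity when unfolded proteins gather in the endoplasmic reticulum. Of 25 genes tested, 15 were lower and 0 higher (median log2 fold change -0.256). CALR, CANX and PDIA3 are among the 25 and are also in the class I list. HSPA5, the main chaperone of the compartment, read 4549, 3457 and 3259 CPM in VC-resistant and 9360.1, 5706 and 5984 CPM in DT-resistant replicates 2, 5 and 6 (log2 fold change -0.88 ± 0.067, adjusted p = 1.57e-06). Both lines lay above the sensitive level of 1547 ± 169 CPM and the EB-resistant level of 1409 ± 65.6 CPM. HERPUD1, a component of degradation from the endoplasmic reticulum, read 176, 124 and 136 CPM against 467, 334 and 290.2 CPM (log2 fold change -1.31 ± 0.071, adjusted p = 1.19e-07). In all 15 lower genes the sensitive mean was below the VC-resistant mean, while 53.9% of all genes lower in VC-resistant cells had a sensitive level below both lines. Without the block 10 were lower.

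Targets of ATF4, the factor of the amino acid and stress response, were in part lower, with 13 of 38 lower and 3 higher. SLC7A5, an amino acid transporter, read 763, 858 and 748 CPM against 2169.8, 2078 and 1796 CPM, and its partner chain SLC3A2 read 459.6, 434 and 399.9 CPM against 760.2, 724 and 695 CPM. Neither overlapped between the lines (log2 fold change -1.35 ± 0.064, adjusted p = 2.77e-08, and log2 fold change -0.75 ± 0.054, adjusted p = 8.86e-07). DDIT4, an inhibitor of mTOR complex 1, read 86.3, 111 and 83.5 CPM against 174, 241 and 194 CPM (log2 fold change -1.12 ± 0.06, adjusted p = 7.16e-08). Of 17 hypoxia response genes 8 were lower and 0 higher, among them P4HA2, a collagen prolyl hydroxylase, at 42.8, 22.3 and 19.9 CPM against 104, 70.6 and 76 CPM (log2 fold change -1.62 ± 0.11, adjusted p = 3.24e-05). Without the block 7 ATF4 targets and 5 hypoxia genes were lower.

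Lipid genes were more often higher in VC-resistant cells: 18 of 39 genes of fatty acid synthesis and use were higher and 4 lower, and without the block 8 and 1. PPARG, a nuclear receptor of fat storage, read 2.62, 2.49 and 2.31 CPM in VC-resistant and 0.213, 0.154 and 0.023 CPM in DT-resistant cells (log2 fold change 4.23 ± 0.37, adjusted p = 5.13e-06). CD36, a fatty acid transporter, read 13.9, 15.3 and 17.3 CPM against 5.87, 6.56 and 7.83 CPM (log2 fold change 1.20 ± 0.096, adjusted p = 2.07e-06), and both lines were above the sensitive level of 0.121 ± 0.0484 CPM. ACSS2, which makes acetyl-CoA from acetate, read 21.7, 22.2 and 24.8 CPM against 11.5, 11.1 and 12.4 CPM (log2 fold change 0.97 ± 0.082, adjusted p = 3.48e-06). Of 23 cholesterol synthesis genes 4 were higher and 2 lower, so 26.1% were called, close to the 28.2% of all tested genes. In glycolysis, 12 of 26 genes were higher and 3 lower, but without the block 3 and 3. The main glucose transporter SLC2A1 was lower, at 304, 264 and 254 CPM against 634, 585 and 515 CPM (log2 fold change -1.08 ± 0.056, adjusted p = 5.7e-08).

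Genes of DNA replication were mostly higher in VC-resistant cells when the lines were compared within replicate pairs. Of 40 tested, 27 were higher and 1 lower (median log2 fold change 0.297), but without the block 0 were higher and 1 lower. E2F2, a factor that opens S phase, read 3.15, 8.82 and 8.24 CPM in VC-resistant and 1.7, 4.54 and 3.91 CPM in DT-resistant replicates 2, 5 and 6 (log2 fold change 0.98 ± 0.13, adjusted p = 0.000147), and without the block its adjusted p was 0.216. TYMS, which makes thymidylate, followed the same pattern, at 125, 180.4 and 199 CPM against 78.5, 129 and 139 CPM (log2 fold change 0.56 ± 0.059, adjusted p = 2.36e-05, lost without the block). Replicate 2 was the lowest library of each line for both genes, and the lines overlapped across numbers while VC-resistant was higher in all 3 pairs. Mitotic genes differed less, with 5 of 35 higher (14.3%, close to the 13.1% of all tested genes) and 0 lower. The proliferation marker MKI67 was not called (log2 fold change 0.033 ± 0.077, adjusted p = 0.795). Without replicate 2, 2 mitotic genes were higher and 5 lower.

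Ribosomal protein genes were slightly higher: 59 of 84 were higher and 0 lower, with a median log2 fold change of 0.209. These transcripts made up 7.96% ± 0.256 of counts in VC-resistant cells and 6.95% ± 0.226 in DT-resistant cells (SD, n = 3). The ranges did not overlap (exact permutation test, two-sided, p = 0.1, the smallest that 3 against 3 libraries allow, adjusted p = 0.25 over 5 measures). The number of calls depended on the fit, with 16 higher without the block, 30 without replicate 5 and 10 without replicate 6. RPS6, a small subunit protein, read 1472, 1389 and 1544 CPM against 1202, 1125 and 1237 CPM (log2 fold change 0.31 ± 0.054, adjusted p = 0.00116). Of 13 mitochondrially encoded mRNAs 8 were higher and 0 lower, and without the block 0 were called. Of 58 nuclear genes of oxidative phosphorylation 2 were higher and 2 lower (6.9% called, against 28.2% of all tested genes).

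Death regulators and efflux pumps held a few large differences. BMF, a BH3-only protein that promotes apoptosis, read 0.734, 1.03 and 0.541 CPM in VC-resistant and 10, 5.49 and 5.66 CPM in DT-resistant cells (log2 fold change -3.15 ± 0.23, adjusted p = 3.22e-06). The survival genes BCL2A1, BCL2L1 and MCL1 were higher in VC-resistant cells (log2 fold change 0.88 ± 0.14, adjusted p = 0.000545, log2 fold change 0.49 ± 0.068, adjusted p = 0.000209, and log2 fold change 0.45 ± 0.067, adjusted p = 0.000353). BCL2L11, which encodes BIM, was not called (log2 fold change 0.22 ± 0.12, adjusted p = 0.202), but was without replicate 2 (adjusted p = 0.0371). Of 16 BCL2 family genes 4 were higher and 3 lower, and without the block 3 and 3. Of 19 ABC transporters 9 were lower and 2 higher, and without the block 6 and 0. ABCG2, a drug efflux pump, read 3.31, 3.85 and 4.7 CPM against 12.9, 16.3 and 17.6 CPM (log2 fold change -1.98 ± 0.11, adjusted p = 7.16e-08), and ABCC3 read 0.682, 0.704 and 0.522 CPM against 2.02, 2.67 and 2.05 CPM (log2 fold change -1.82 ± 0.23, adjusted p = 9.27e-05). ABCB1, the pump best known for drug resistance, had 0 counts in all 6 libraries, and the 3 counts that such a 0 allows come to 0.0787 CPM in the smallest library.

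Neighbouring genes differed in the same direction in several stretches of the genome. In 749 windows of 40 tested genes, each overlapping the next by 50%, the median log2 fold change ran from -0.136 at the 5th to 0.115 at the 95th percentile. The lowest window, on chromosome 6 (24402908 to 27132795, hg38), had a median of -0.42, with 36 of 40 genes below 0 and 19 lower. It holds histone genes and butyrophilins, among them H1-2, a linker histone, at 12.6, 9.35 and 11.8 CPM against 34.1, 22.9 and 21.7 CPM (log2 fold change -1.20 ± 0.11, adjusted p = 7.78e-06), and BTN2A2, at 24.2, 23.5 and 21.9 CPM against 34.2, 34.3 and 38.1 CPM (log2 fold change -0.61 ± 0.078, adjusted p = 9.54e-05). The next stretch of chromosome 6 (27133042 to 30061640), which reaches the HLA genes, had a median of -0.25 with 10 lower and 0 higher. Of 32 histone genes in all, 16 were lower: 11 of the 22 on chromosome 6 and 5 of the 10 elsewhere. Without the block 8 were lower. Histone transcripts made up 0.0516% to 0.0599% of counts in VC-resistant and 0.0637% to 0.0929% in DT-resistant libraries, highest in DT-resistant replicate 2. The libraries were poly-A selected, and how fully they captured histone transcripts was not tested. On chromosome 6 as a whole 230 of 840 genes were lower and 71 higher, and without the MHC and histone list members 203 of 798 were lower and 71 higher. A window at the start of chromosome 5 (196868 to 10440388) had a median of -0.28 with 14 lower and 3 higher, and chromosome 4 had 144 of 560 genes lower and 45 higher.

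The highest window lay on chromosome 19 (20776304 to 32405560), with a median of 0.40, 33 of 40 genes above 0, 17 higher and 1 lower. It is made largely of zinc finger genes. ZNF431 read 49.2, 76.8 and 65.1 CPM in VC-resistant and 17.3, 23 and 27.9 CPM in DT-resistant cells (log2 fold change 1.49 ± 0.091, adjusted p = 7.65e-07), and ZNF714 read 55.8, 90.8 and 71.4 CPM against 22.6, 33.5 and 35.1 CPM (log2 fold change 1.25 ± 0.08, adjusted p = 5.31e-07). Both were above every library of the sensitive and EB-resistant lines in VC-resistant cells. The median was above 0 within each pair, at 0.279, 0.469 and 0.441 for replicates 2, 5 and 6. Zinc finger genes of this cluster have near copies, so their counts are uncertain. A window of chromosome 13 (54440704 to 87696272) had a median of 0.25 with 14 higher and 0 lower, among them KLF5, a transcription factor, at 17.5, 12.5 and 10.7 CPM against 5.36, 6.19 and 5.73 CPM (log2 fold change 1.21 ± 0.15, adjusted p = 0.000159), and EDNRB, the endothelin receptor of the melanocyte lineage (log2 fold change 1.14 ± 0.17, adjusted p = 0.000351). A window on chromosome X (131273506 to 141909374) had a median of 0.21 with 13 higher and 5 lower.

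**Figure D5:**
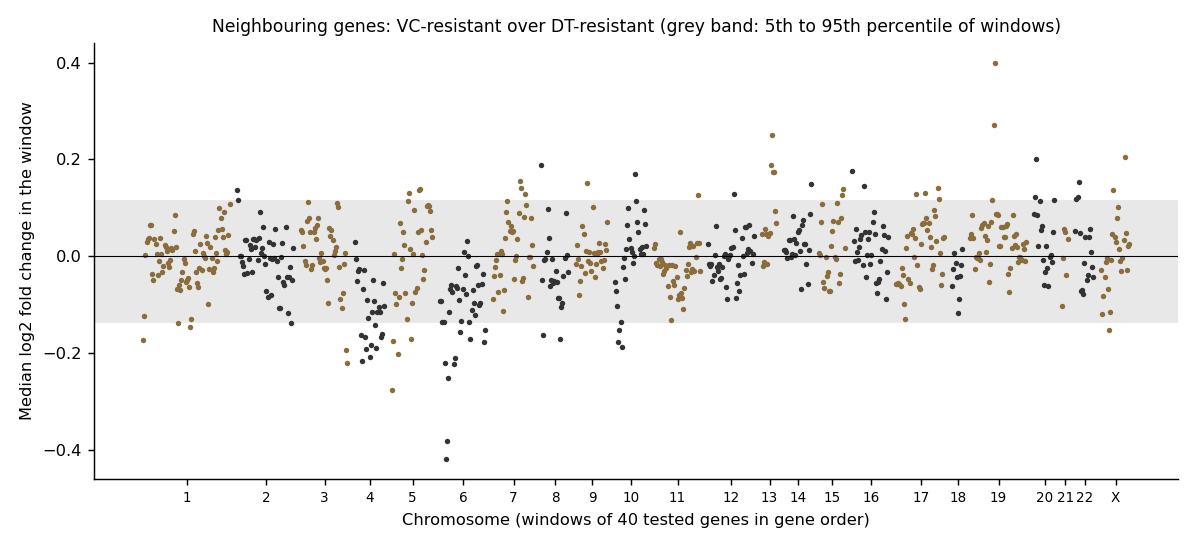
Median log2 fold change (VC-resistant over DT-resistant) of 749 windows of 40 neighbouring tested genes, in gene order along each chromosome. The grey band spans the 5th to 95th percentile of windows (-0.136 to 0.115), and the windows farthest from it are on chromosome 6 (-0.42) and chromosome 19 (0.40).

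The sensitive line helps to place these differences. Of the 485 genes at least 2-fold lower in VC-resistant cells, 373 (76.9%) had a sensitive level nearer to the VC-resistant than to the DT-resistant one, and of the 305 at least 2-fold higher genes 188 (61.6%) did, against 55.9% of all tested genes. The EB-resistant level was nearer to the VC-resistant one for 51.1% and 44.9% of these genes, against 47.0% of all. WNT5A, INHBA and KCNJ15 are examples in which the DT-resistant line stood above the other 3, and LAMA4 and ITGA7 are examples in which the VC-resistant line did. These shares describe positions of means and were not tested.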

How the data were processed

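RNA from 12 cultures of 4 lines (3 libraries each) had been sequenced from strand-specific, poly-A selected libraries, per the labels' protocols. The authors deposited 1 table of whole-number read counts per gene. Per the submitters' processing notes, they used bcl2fastq 2.20.0, STAR 2.7.10b, featureCounts 2.0.1 and DESeq2 1.38.3 with the genome build hg38. The labels do not state the annotation release or the strand setting of the counting, so reads of overlapping or antisense genes may be shared.

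The 6 VC-resistant and DT-resistant libraries (40491309 to 54495132 counts) were fitted with edgeR 4.0.16 (R 4.3.3): low genes were filtered by line, library sizes were scaled by TMM over the 12 libraries, and line was tested with the replicate number as a block by the robust quasi-likelihood F test, with 2 residual degrees of freedom before moderation and Benjamini-Hochberg adjustment over 15680 genes. The standard error is the log2 fold change divided by the root of F. The labels give both lines the numbers 2, 5 and 6 and the design text names 3 independent experiments. The block was set in advance, and a check of it followed. Same-numbered libraries deviated together (correlations 0.400, 0.209 and 0.253, against -0.323 to 0.161 for different numbers). Deviations from a line's mean cancel out, so some negative values for different numbers are built in. The 0.161 was VC-resistant replicate 5 against DT-resistant replicate 6, near the 0.209 of the replicate 5 pair. On simulated data with known changes over 15680 genes, the fit recovered 60 of 67 genes changed 1.5-fold, 65 of 67 changed 2-fold and 66 of 66 changed 4-fold, with 9 false calls. The changed genes all had a mean over 1 CPM, and the counts were drawn from the fit's own model with its replicate effect. These figures therefore do not cover changes in genes of lower level or departures of the real data from that model.

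Genes named are the 12 highest and 12 lowest called genes with at least 5 CPM in each library of the higher line and 1 direction in all 3 pairs, the 6 largest differences in CPM each way, up to 3 called members per direction of each of 53 lists by adjusted p, up to 6 per direction with at most 3 counts in 1 line and at least 1 CPM in the other, up to 6 called genes in each of the 3 highest and 3 lowest windows, and some drug response genes. Those outside this rule are said to be chosen after their values were seen. The members and lists were chosen with earlier results of these data known. Alternatives were DESeq2 1.42.0, limma 3.58.1, other scalings and filters, fits of all 12 libraries, fits without the block and left-out replicates. Sums and figures used Python 3.11.15, pandas 2.3.3, scipy 1.17.1 and matplotlib 3.10.9. Some results are not reported here.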

Additional observations from a re-analysis of the deposited data

How the results depend on the processing

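Of the 306 called genes among the 317 named and tested, 304 kept their direction and call with median of ratios scaling, 302 with upper quartile scaling, 293 in DESeq2, 306 in limma voom, 302 with no filter, 269 in all 12 libraries with the block, 243 in all 12 libraries without it, and 222 without it in 6 libraries. Genes higher and lower in VC-resistant cells numbered 815 and 1105 without the replicate block and 1199 and 1492 in all 12 libraries without it, against 2058 and 2360 as reported. With at least 1 CPM in each library, which left 12127 genes, 120 were at least 2-fold higher and 213 at least 2-fold lower, against 305 and 485. Leaving out 1 pair gave 1175 to 2306 higher and 1401 to 2530 lower genes. Without the block, leaving out VC-resistant replicate 2, 5 or 6 gave 826, 388 and 376 higher and 1172, 570 and 532 lower genes, and leaving out DT-resistant replicate 2, 5 or 6 gave 847, 440 and 541 higher and 1032, 638 and 914 lower ones. The at least 2-fold higher genes were then 170 and 167 without VC-resistant replicates 5 and 6 and 188 without DT-resistant replicate 5, and the at least 2-fold lower ones 304 and 282 without VC-resistant replicates 5 and 6. L1CAM, an adhesion gene, was the only named gene that reversed, at 0.01433 without DT-resistant replicate 2. The cause was not tested beyond the smaller number of genes or libraries. Upper quartile scaling moved the median of all genes to 0.0231 and the higher share of calls from 46.6% to 53.1%. The smallest p of the exact permutation test on library composition, with 3 against 3 libraries, is 0.1. Genes with few counts have wide errors, and 1 line per drug pair limits every comparison.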

Other observations

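Some genes outside the lists' names were looked at after their values were seen. Among them were AHR, the aryl hydrocarbon receptor, and 3 genes that it is known to induce, which were picked for their values and stand for no list. CYP1A1, a monooxygenase, read 0.446, 0.242 and 0.336 CPM in VC-resistant and 2.83, 2.18 and 2.69 CPM in DT-resistant replicates 2, 5 and 6 (log2 fold change -2.92 ± 0.25, adjusted p = 3.75e-06 by edgeR's quasi-likelihood test). AHRR, the repressor of the receptor, read 0.734, 0.44 and 0.522 CPM against 3.25, 2.16 and 1.5 CPM (log2 fold change -1.98 ± 0.25, adjusted p = 8.44e-05). TIPARP, a mono-ADP-ribosyltransferase that limits the receptor, read 75.5, 49.5 and 49.8 CPM against 312, 194 and 169 CPM (log2 fold change -1.93 ± 0.067, adjusted p = 1.91e-09). The receptor gene AHR itself read 137, 119.8 and 119.5 CPM against 253, 223 and 201 CPM (log2 fold change -0.84 ± 0.057, adjusted p = 5.5e-07). None of the 4 genes overlapped between the lines, as was so for 31.9% of all tested genes. The sensitive and EB-resistant means of CYP1A1 were 0.403 ± 0.158 CPM and 1.86 ± 0.151 CPM (SD, n = 3). AHRR lies in the low window at the start of chromosome 5 and so also met the naming rule. The list of NRF2 targets and drug metabolism, whose lowest log2 fold change equals the -2.92 of CYP1A1, was mixed. Of its 35 genes tested, 7 were higher and 9 lower (median -0.0463).

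Contractile genes did not move together: 7 of 21 were higher and 8 lower. TAGLN, which encodes transgelin of contractile cells, read 87.8, 68.8 and 55.9 CPM against 24.4, 21.7 and 23.1 CPM (log2 fold change 1.60 ± 0.098, adjusted p = 1.57e-06). MYOCD, a coactivator of contractile genes, lay the other way, at 1.97, 2.64 and 1.57 CPM against 5.87, 7.29 and 7.85 CPM (log2 fold change -1.78 ± 0.18, adjusted p = 1.65e-05). Among axon guidance genes, 15 of 43 were higher and 11 lower, and without the block 9 and 8. SEMA3F, a secreted semaphorin, read 4.28, 15.1 and 16.2 CPM against 1.06, 2.56 and 2 CPM (log2 fold change 2.59 ± 0.17, adjusted p = 7.4e-07), and EPHB1, an ephrin receptor, read 10.1, 10.1 and 12.5 CPM against 1.36, 2.69 and 1.77 CPM (log2 fold change 2.51 ± 0.19, adjusted p = 4.16e-06). EFNA1, an ephrin ligand, was lower, at 4.91, 3.04 and 2.16 CPM against 17.2, 12.3 and 12.7 CPM (log2 fold change -2.11 ± 0.14, adjusted p = 6.85e-07).

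Marker lists of other cell types moved in part. Of 9 keratinocyte and epithelial genes tested, 5 were lower and 1 higher in VC-resistant cells, KRT17 among the lower ones, while CDH1, the defining epithelial cadherin, had at most 10 counts in each library. Of 14 melanocyte lineage genes 5 were higher and 1 lower, and of 12 neuronal and glial genes 3 were higher and 2 lower. Of 33 genes of lysosomes and autophagy 14 were lower and 4 higher, and of 31 HOX genes 6 were lower and 0 higher, against 15.1% lower and 13.1% higher over all genes. Without the block 0 HOX genes were called. SOX10 and MLANA were not analysed here.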
